A study of Mus musculus with 9 samples.

Results

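The genes that put peptides on MHC class I molecules were followed in irradiated mouse salivary glands. The 10 genes were chosen by name for their role in the pathway, with earlier results of these data known. They are H2-K1 and H2-D1 (the classical heavy chains), B2m (the light chain), Tap1, Tap2 and Tapbp (peptide transport and loading), Psmb8, Psmb9 and Psmb10 (the immunoproteasome subunits) and Nlrc5 (a transcriptional activator of class I genes). The count table lists 54532 gene identifiers, and all 10 genes were among the 15224 that passed the filter on low counts. The fewest reads on any of the 10 in a library were 51 (Psmb9) and the most 28790 (H2-K1).

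Bulk RNA sequencing covered submandibular glands of mice labelled WT, each given 10 Gy of radiation, with 3 samples at 30 days, 3 at 60 days and 3 at 90 days after the exposure. RNA came from tissue sections 50 µm thick, so each library mixes the gland's epithelium, stroma, vessels and immune cells. Every group was irradiated and non-irradiated glands were not analysed here, so time since irradiation and age cannot be told apart. The labels do not say whether samples of a group came from separate animals, and if they did not, the p-values cover technical spread. The title of the study names muscarinic agonism and a calcium and ATP axis, and its design text asks how the irradiated gland degenerates. Totals ran from 16541396 to 26065856 counts a library, the 30-day libraries being the shallowest. Levels below are CPM, counts scaled to library size with TMM factors, and a floor of 3 counts lies between 0.101 and 0.213 CPM.

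MHC class I molecules display peptides from inside the cell to CD8 T cells, and nearly every nucleated cell carries them. Proteasomes cut proteins into peptides, and under interferon the constitutive catalytic subunits are exchanged for Psmb8, Psmb9 and Psmb10. The TAP transporter carries the peptides into the endoplasmic reticulum, where tapasin helps them onto the heavy chain paired with beta-2 microglobulin. Nlrc5 and interferon-regulated factors act on a promoter module that the class I genes share, which is why these genes often move together in inflamed tissue. In salivary gland, class I genes are known to be raised where lymphocytes gather and interferon is made.

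The promoters of H2-K1 and B2m are shown because these were the genes of the 10 called higher from 30 to 90 days. Each line holds the 250 bases before the RefSeq start site in build GRCm38.p6, 5′ to 3′ on the gene's strand. H2-K1 lies at chr17:34000348-34000597 on the minus strand and B2m at chr2:122147437-122147686 on the plus strand. Capitals mark matches on either strand to 4 patterns. TGACG is the core of the cyclic AMP response element. CCAAT is the box bound by NF-Y, which reads ATTGG on the other strand. GGNNTTNCC is a kappa B-like pattern, and GAANNGAAA is a form of the interferon response element pattern. TTCNNNGAA, a form of the gamma-activated site of interferon-induced genes, was also searched and matched neither line. A match is a description of letters and not a measured binding site.
H2-K1: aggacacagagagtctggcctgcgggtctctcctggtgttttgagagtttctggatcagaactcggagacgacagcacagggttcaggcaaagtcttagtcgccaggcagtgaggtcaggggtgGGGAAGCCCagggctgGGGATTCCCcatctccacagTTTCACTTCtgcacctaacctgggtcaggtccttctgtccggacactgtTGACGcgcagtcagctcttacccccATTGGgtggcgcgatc
B2m: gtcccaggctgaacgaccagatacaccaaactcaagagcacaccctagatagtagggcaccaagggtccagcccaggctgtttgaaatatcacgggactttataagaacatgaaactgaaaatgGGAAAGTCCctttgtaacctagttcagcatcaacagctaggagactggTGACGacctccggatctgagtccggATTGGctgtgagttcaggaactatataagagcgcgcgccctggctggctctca

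H2-K1 held 2 kappa B-like matches 126 and 110 bases before its start, an interferon element 90 bases before it, TGACG at 41 and the CCAAT box at 16. The H2-D1 window held the same 5 matches in the same order, each 60 bases farther from its RefSeq start, and over the 190 bases that align at that offset 166 (87.4%) were identical. It held 1 more CCAAT box, 53 bases before the start. B2m held a single kappa B-like match at 126, TGACG at 78 and the CCAAT box at 53, and no match to GAANNGAAA. Its printed line does hold gaaactgaaa, which has 1 base more and is another form of the interferon element, not counted by that pattern. In all of the 3 genes TGACG preceded the inverted CCAAT box by 25 bases. That stretch of 30 bases is printed below, since it is the part that the 3 genes have in common.
H2-K1, chr17:34000359-34000388, minus strand: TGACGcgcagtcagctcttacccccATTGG
H2-D1, chr17:35262993-35263022, plus strand: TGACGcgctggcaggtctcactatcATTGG
B2m, chr2:122147609-122147638, plus strand: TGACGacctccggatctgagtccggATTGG

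Of the 30 bases, 23 were identical between H2-K1 and H2-D1, 13 between H2-K1 and B2m, and 12 between H2-D1 and B2m. The spacing was read off H2-K1, which therefore has it by construction. The pair at that spacing stood in 30 of 32851 promoter windows in the RefSeq table (0.0913%), among them the class I-like gene H2-M3. The table held a window for 8 of the 10 genes and none for Tap2 and Nlrc5. TGACG occurred in 5 of the 8 against 17.8% of all windows, and the CCAAT box in 6 against 33.8%. GAANNGAAA occurred in 2 against 6.31%, a count that leaves out other forms of the interferon element, such as that in B2m. TTCNNNGAA occurred in 1 (Psmb8) against 7.02%. The kappa B-like pattern occurred in 3 against 13.5%, but it was settled after the H2-K1 and B2m sequences were seen. The 8 windows are not independent, since those of H2-K1 and H2-D1 share most of their aligned bases. By RefSeq start sites Psmb9 and Tap1 point away from each other with 225 bases between them, while their GENCODE positions overlap by 212 bases. The stretch between the RefSeq starts (chr17:34187331-34187555) held a single TGACG and a single CCAAT box. Each of these sites lies in the windows of both genes and is counted for both.

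B2m and H2-K1 transcripts rose by 90 days, and no gene of the 10 changed detectably between 30 and 60 days. B2m was 1.77-fold higher and H2-K1 1.54-fold higher at 90 than at 30 days. The fitted change from 30 to 90 days was above 0 for each of the 10 genes, but for the other 8 it did not pass the threshold. B2m and H2-K1 make up 2 of 10 called, against 3.57% of all genes tested called in either direction and 1.81% called higher (edgeR's quasi-likelihood test, adjusted p under 0.05 over all 15224 genes). The median change over the 10 was 0.51 on the log2 scale, against 0.01 over all genes tested.

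**Figure D1:**
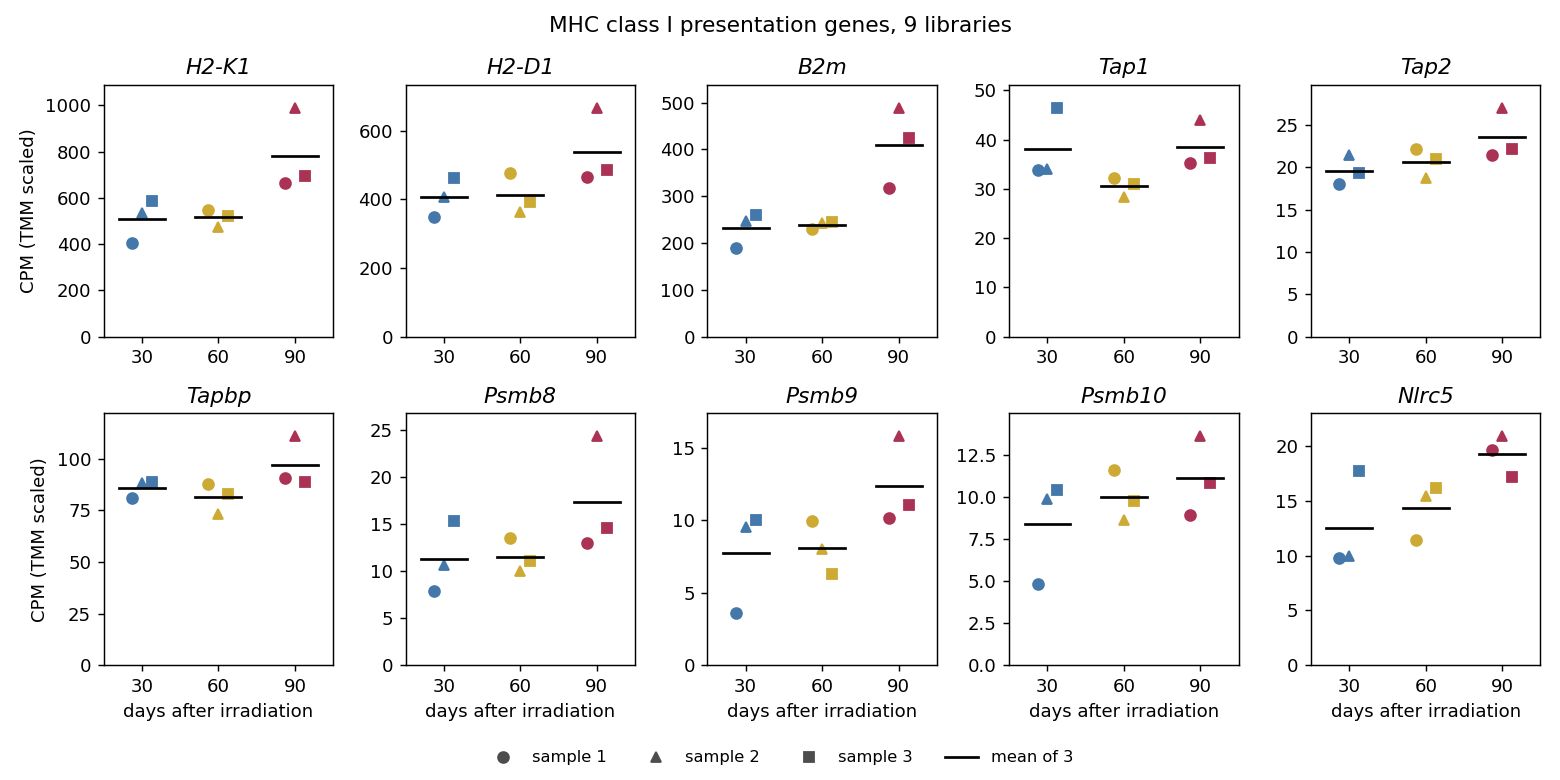
Level of each gene in CPM (vertical axes, each from 0) in the 9 libraries, by days after irradiation; symbols are sample numbers, which do not link animals between time points, and bars are means of 3. The 90-day samples of B2m and H2-K1 lie above every earlier sample, and the triangle at 90 days is the highest library in 9 of 10 panels.

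B2m (chr2:122147686-122153083, plus strand) encodes beta-2 microglobulin, the light chain that every class I heavy chain needs to reach the cell surface. Its levels were 189, 247 and 260.3 CPM at 30 days, 231, 243 and 244 CPM at 60 days, and 317, 489 and 424 CPM at 90 days. The 30-day and 60-day values overlapped, and all 3 values at 90 days stood above the other 6. Means were 232 ± 38.2, 239.5 ± 7.25 and 409.7 ± 86.9 CPM (SD, n = 3). The step to 60 days measured 0.05 on the log2 scale (SE 0.15, adjusted p = 0.944, edgeR). From 60 to 90 days B2m rose by 0.77 (SE 0.15, 1.71-fold, adjusted p = 0.0303, edgeR), and from 30 to 90 days by 0.82 (SE 0.15, adjusted p = 0.0042). It was the single gene of the 10 called from 60 to 90 days, a step at which 0.256% of all genes were called and 0.092% were called higher. That call was lost, with changes of 0.62 to 0.78, on leaving out 30-day sample 2, 60-day sample 1, 60-day sample 2, 90-day sample 2 or 90-day sample 3 (adjusted p between 0.0673 and 0.198). The call from 30 to 90 days held under each of 17 alternative settings, with changes between 0.67 and 1.03 and a highest adjusted p of 0.0279.

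H2-K1 (chr17:33996017-34000347, minus strand) encodes the K heavy chain, which holds the peptide. It stood at 407, 534 and 588 CPM at 30 days, 549.7, 475 and 523 CPM at 60 days, and 664, 989.6 and 694 CPM at 90 days. As for B2m, the first 2 time points overlapped and each 90-day sample was above all earlier ones. The rise from 30 to 90 days was 0.62 on the log2 scale (SE 0.16, adjusted p = 0.0368, edgeR), and the step from 60 days measured 0.60 (SE 0.16, adjusted p = 0.15). The call rested on several libraries. Without 30-day sample 1 the change was 0.48 (adjusted p = 0.19, edgeR), without 30-day sample 2 it was 0.65 (0.101), and without 60-day sample 2 it was 0.62 (0.0631). Without 90-day sample 2 it was 0.41 (adjusted p = 0.245, edgeR), and without 90-day sample 3 it was 0.70 (0.0609). Scaling by library size alone gave 0.84 (adjusted p = 0.076, edgeR) and the 6 samples of the contrast alone gave 0.62 (0.0741).

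H2-D1 (chr17:35262730-35267499, plus strand), which encodes the D heavy chain, had 350, 407 and 463 CPM at 30 days, 477, 364.5 and 393 CPM at 60 days, and 466, 667 and 485 CPM at 90 days. The lowest 90-day value exceeded the highest 30-day value by little and lay under the highest 60-day value. Over the whole interval it differed by 0.41 (SE 0.15, adjusted p = 0.162, edgeR). The heavy chains share sequence with their relatives, and whether reads were split between them was not measured: 9.63% of the 50-base windows of H2-K1 transcripts and 12.8% of those of H2-D1 also occurred in transcripts of other genes. No window of B2m did.

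Tap1 and Tap2 form the peptide transporter, and Tapbp encodes tapasin, which bridges it to the empty heavy chain. Tap1 was the gene of the 10 whose 60-day samples lay lowest, with 33.8, 34.1 and 46.5 CPM at 30 days, 32.2, 28.4 and 31.0 CPM at 60 days, and 35.2, 44.0 and 36.2 CPM at 90 days. The 60-day values stood below both other groups without overlap, but the change from 30 to 60 days of -0.32 (SE 0.13) had an adjusted p of 0.303 and the change from 60 to 90 days of 0.33 one of 0.348 (edgeR). From 30 to 90 days Tap1 differed by 0.01 (SE 0.13). Tap2 lay between 18.0 and 27.05 CPM in all 9 libraries and its groups overlapped at each step. Tapbp lay between 73.4 and 110.9 CPM, with every 90-day sample above every earlier one by a margin as small as 88.8 against 88.7 CPM. The changes from 30 to 90 days were 0.26 (SE 0.13, adjusted p = 0.302) for Tap2 and 0.17 (SE 0.11, adjusted p = 0.468, edgeR) for Tapbp.

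The immunoproteasome subunits were low and varied within groups. Psmb8, which replaces Psmb5, ranged from 7.94 to 15.4 CPM at 30 days, 10.0 to 13.6 at 60 days and 13.1 to 24.4 at 90 days. Psmb9, which replaces Psmb6, ranged from 3.62 to 10.0, 6.30 to 9.97 and 10.2 to 15.8 CPM, so that its 90-day samples stood just above the rest. Psmb10, which replaces Psmb7, ranged from 4.82 to 10.4, 8.59 to 11.6 and 8.90 to 13.6 CPM and overlapped throughout. The changes from 30 to 90 days were 0.61 (SE 0.27) for Psmb8, 0.67 (SE 0.33) for Psmb9 and 0.40 (SE 0.24) for Psmb10. Their standard errors were the widest of the 10 genes, and the adjusted p-values were 0.283, 0.342 and 0.442 (edgeR). The changes without 90-day sample 2 were 0.28 for Psmb8, 0.44 for Psmb9 and 0.22 for Psmb10. Without 30-day sample 1 they were 0.42, 0.34 and 0.13.

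Nlrc5, the activator of class I promoters, had 9.78, 9.99 and 17.8 CPM at 30 days, 11.5, 15.4 and 16.2 CPM at 60 days, and 19.7, 20.9 and 17.2 CPM at 90 days. Every 90-day sample was above the 60-day samples, while 30-day sample 3 fell inside the 90-day range. Between 30 and 90 days it differed by 0.62 (SE 0.20, adjusted p = 0.119, edgeR), as large as that of H2-K1 with a wider error.

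**Figure D2:**
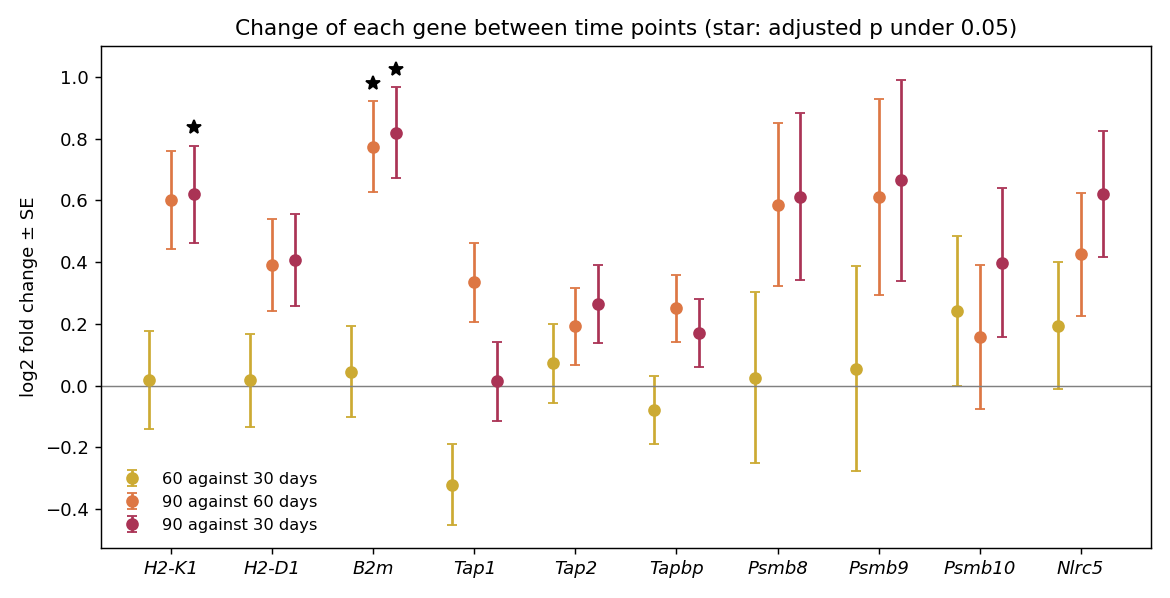
Log2 fold change of each gene (points) with its standard error (bars) between time points, from the fit over all 9 libraries; stars mark adjusted p under 0.05. B2m carries 2 stars and H2-K1 carries 1, and no change from 30 to 60 days carries any.

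The difference between the 2 steps did not pass the test for any of the 10 genes. From 30 to 60 days 8 of 10 changes were above 0, with a median of 0.04. None was called by edgeR, which called 1.56% of all genes, and DESeq2 and limma-voom also called none. An unadjusted p under 0.05 with edgeR was found for 1 of the 10, against 1883 of all 15224 genes. From 60 to 90 days all 10 were above 0, with a median of 0.41 against 0.00 over all genes, and without 90-day sample 2 the median was 0.23 with 9 of 10 above 0. The second step minus the first was 0.73 for B2m (adjusted p = 0.339, edgeR) and 0.66 for Tap1 (adjusted p = 0.311). None of the 10 was called in that test by edgeR, DESeq2 or limma-voom, and edgeR called 0.256% of all genes. There 3 of the 10 had an unadjusted p under 0.05 with edgeR, against 1439 of all 15224 genes. The test of any difference among the time points called B2m (adjusted p = 0.00357) and H2-K1 (adjusted p = 0.0398, edgeR), where 3.29% of all genes were called.

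All 3 samples at 90 days stood above all 3 at 60 days for 6 of the 10 genes (H2-K1, B2m, Tap1, Tapbp, Psmb9 and Nlrc5), against 8.3% of all genes tested. They stood above all 3 at 30 days for 5 of the 10 (H2-K1, H2-D1, B2m, Tapbp and Psmb9), against 11.4% of all genes. The 10 genes are not independent of each other in these libraries. The correlation of log2 CPM between 2 of them over the 9 libraries ran from 0.374 (Tap1 with Psmb10) to 0.975 (H2-D1 with Psmb8), with a median of 0.775 over 45 pairs, and these points share each library's depth and scaling.

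A single library supplied many of the highest values. 90-day sample 2 was the highest of the 9 for 9 of the 10 genes, while 13.3% of all genes tested peaked there. The exception was Tap1, which was highest in 30-day sample 3. 30-day sample 1 was the lowest library for 8 of the 10, against 18.2% of all genes. Without 90-day sample 2, B2m was the gene of the 10 still called from 30 to 90 days, with a rise of 0.67 (adjusted p = 0.0272, edgeR), against 1.23% of all genes called in that fit. In the same fit 9 of 10 changes were above 0, the median change was 0.25, and Tap1 stood at -0.10. H2-D1 changed by 0.22, Tap2 by 0.15 and Tapbp by 0.06 there. From 60 to 90 days without it, none of the 10 was called, B2m changed by 0.62 (adjusted p = 0.19) and Psmb10 stood at -0.03.

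Immune cell markers moved with that library. The defining markers of leukocytes (Ptprc and 4 others) summed to 60.2 to 93.9 CPM at 30 days and 62.5 to 75.6 at 60 days. At 90 days they summed to 80.5, 121 and 89.1 CPM in samples 1, 2 and 3, and 5 of 5 were highest in 90-day sample 2. The 11 T and cytotoxic lymphocyte markers summed to 4.47 to 7.01, 5.96 to 7.91 and 9.61 to 20.8 CPM at the 3 time points, and 9 of 11 peaked in that library. The 8 B and plasma cell markers stood at 25.3 to 49.0 and 26.7 to 31.0 CPM at 30 and 60 days, then at 66.1, 455 and 76.3 CPM, and 8 of 8 peaked there. The B cell gene Ms4a1 was at 0.0674, 1.34 and 0.0502 CPM in 90-day samples 1, 2 and 3.

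Among single lymphocyte markers, Cd3e (a chain of the T cell receptor complex) averaged 0.189 CPM at 30 days and reached 0.539, 1.07 and 1.16 CPM at 90 days. Its 90-day values stood above all earlier ones, and it was called for any difference (adjusted p = 0.0432) but not from 30 to 90 days (adjusted p = 0.055, edgeR). Ptprc, the common leukocyte antigen, changed by 0.36 from 30 to 90 days (adjusted p = 0.484, edgeR). The 4 MHC class II genes summed to 408 to 675 CPM at 30 days, 533 to 546.5 at 60 days and 618 to 1089 at 90 days. Macrophage and dendritic markers summed to 154 to 298, 194 to 218 and 221 to 368 CPM. None of the leukocyte, T cell, B cell, macrophage or class II markers tested was called between 2 time points by edgeR. From 30 to 90 days edgeR gave 2560 of all 15224 genes an unadjusted p under 0.05. Among the markers tested it gave such a p to 1 of 5 leukocyte, 5 of 8 T cell and 2 of 4 B cell genes. For class II it was 1 of 4 and for macrophages 0 of 9. DESeq2 called Cd2, Trbc2, Cd4, Jchain and Igkc in that step, and limma-voom called Igkc. The numbers from 60 to 90 days were 5 leukocyte, 5 T cell, 4 B cell, 3 class II and 0 macrophage markers. Over all 15224 genes it was 1637. There DESeq2 called Jchain and Igkc, and limma-voom called none. Without 90-day sample 2, edgeR called Jchain, the joining chain of secreted antibodies, which rose by 1.22 from 30 to 90 days (adjusted p = 0.0477) and by 1.57 from 60 days (adjusted p = 0.0459). In bulk tissue, more cells of a type and more RNA per cell cannot be told apart, and the part of these cells in the class I values was not tested.

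**Figure D3:**
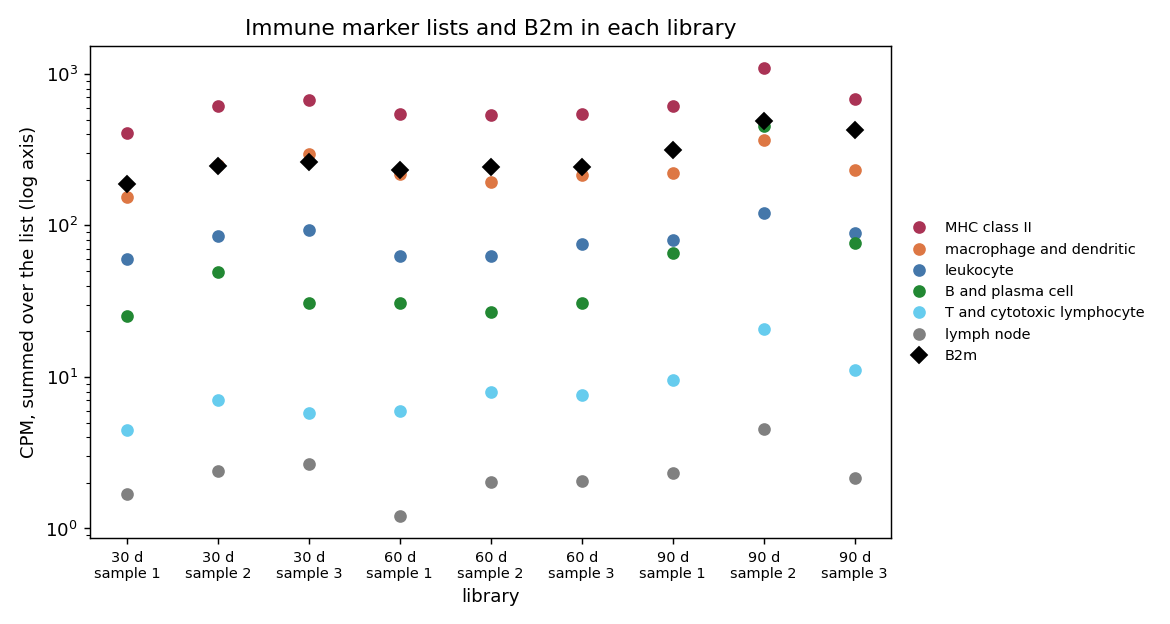
Summed CPM of 6 immune marker lists and the level of B2m (black diamonds) in each of the 9 libraries, on a log axis. 90-day sample 2 is the highest library for each list and for B2m, and B and plasma cell markers reach 455 CPM there.

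Gland epithelium was present in every library. Acinar markers (Aqp5, Bhlha15, Lpo and Pip) summed to 12310 to 14720 CPM at 30 days, 13370 to 17440 at 60 days and 7205 to 10950 at 90 days, with the lowest sum in 90-day sample 2. From 30 to 90 days the water channel gene Aqp5 fell by 0.57 (adjusted p = 0.0113) and the peroxidase gene Lpo by 0.60 (adjusted p = 0.0454, edgeR). None of the 4 was called by edgeR in that step without 90-day sample 2, and their median change was then -0.50. Over all 9 libraries DESeq2 called 3 of them and limma-voom 2. Among granular duct markers, Egf rose by 2.09 (adjusted p = 0.00077), Klk1b22 by 1.80 (adjusted p = 0.0019) and Ren1 by 2.37 (adjusted p = 0.0358, edgeR) over the same interval, while Klk1 differed by 0.03 (adjusted p = 0.956). With 90-day sample 2 left out, edgeR called 2 granular duct markers in that step. The lymph node genes Ccl21a and Glycam1 were at or near 0 in 90-day sample 2, with Ccl21a at 0 in all 9 libraries. The part of these epithelial changes in the class I values was not tested.

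Per length of exon, B2m was the most abundant of the 10 at each time point, with 270 CPM per kb of exon at 30 days, 279 at 60 days and 476 at 90 days. H2-K1 followed with 173, 176 and 266 CPM per kb and H2-D1 with 158, 160 and 209. The ranges of the 2 heavy chains overlapped at each time point. Tapbp was next with 23.7, 22.5 and 26.7 CPM per kb, above Tap1 at 6.96, 5.58 and 7.03. Tap2 (5.19, 5.46 and 6.23) and Psmb10 (4.91, 5.84 and 6.51 CPM per kb) overlapped in range at each time point. Psmb8, Psmb9 and Nlrc5 had the lowest values per kb, between 1.47 and 5.13 CPM per kb as group means. Where reads fall along a transcript was not measured, so short and long genes compare roughly.

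Ratios between genes of the same library do not depend on how libraries are scaled. H2-K1 over H2-D1 per kb was 1.02 to 1.15 at 30 days, 1.01 to 1.17 at 60 days and 1.25 to 1.30 at 90 days, so that K exceeded D by more in each 90-day library. B2m over Tap1 was 35.5 to 46.2, 45.6 to 54.5 and 57.3 to 74.4 at the 3 time points, and H2-K1 over Tap1 was 22.4 to 29.2, 31.1 to 31.8 and 35.2 to 41.9. For H2-K1 over Tap1 the 3 groups did not overlap, and 90-day samples 1 and 3, at 35.2 and above, also exceeded every earlier library. B2m over H2-K1 overlapped between time points, at 1.51 to 1.58, 1.44 to 1.75 and 1.63 to 2.08. These ratios were picked after the levels were known and are given without a test.

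Each immunoproteasome subunit can be set against the constitutive subunit it replaces. Psmb8 over Psmb5 was 0.0589 to 0.126 at 30 days, 0.0898 to 0.102 at 60 days and 0.111 to 0.199 at 90 days. Psmb9 over Psmb6 was 0.0404 to 0.111, 0.082 to 0.106 and 0.125 to 0.176, with each 90-day library above all earlier ones. Psmb10 over Psmb7 was 0.339 to 0.806, 0.67 to 0.877 and 0.656 to 1.01, and overlapped. These ratios are per kb of joined exon length, so their heights do not compare well from pair to pair. The constitutive subunits themselves changed little from 30 to 90 days, by -0.08 for Psmb5, -0.07 for Psmb6 and -0.02 for Psmb7 on the log2 scale, and none was called.

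**Figure D4:**
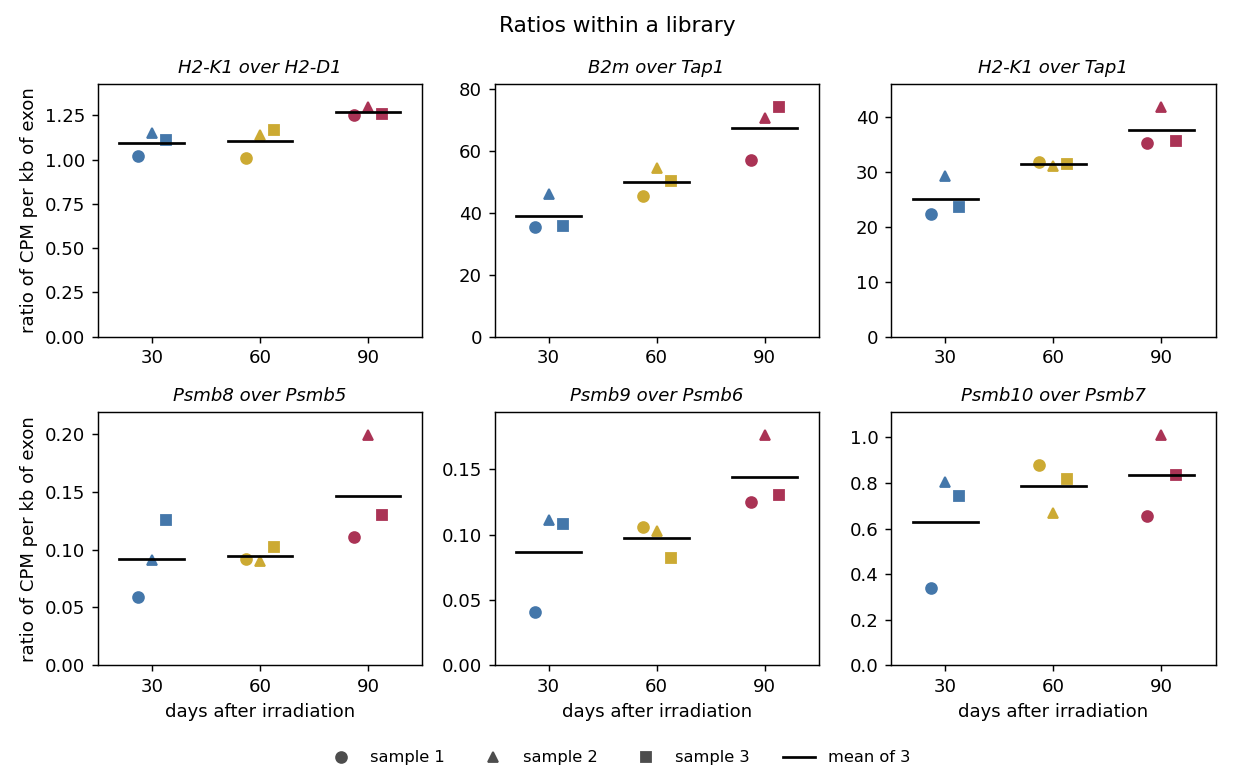
Ratio of CPM per kb of exon between 2 genes of the same library (vertical axes, each from 0) by days after irradiation; symbols are sample numbers and bars are means of 3. H2-K1 over H2-D1 is 1.25 to 1.30 in the 90-day libraries and 1.17 or less in the others.

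Other parts of the class I pathway were compared by lists. Class Ib and class I-like heavy chains, less variable relatives of K and D, had 15 of 17 genes tested and a median change of 0.37 from 30 to 90 days. H2-Q6 and H2-Q7, which encode Qa-2 molecules, were the 2 called in that step, while 11 of the 15 changes were above 0. H2-Q7 went from 13.8, 20.98 and 23.9 CPM at 30 days through 22.1, 24.3 and 25.2 to 33.9, 64.3 and 50.95 CPM at 90 days. Its rise was 1.34 on the log2 scale (adjusted p = 0.0151), and that of H2-Q6 was 1.01 (adjusted p = 0.0272, edgeR). H2-Q4 was called for any difference among the time points (adjusted p = 0.0275) and differed by 0.46 from 30 to 90 days. Without 90-day sample 2, H2-Q7 changed by 1.10 (adjusted p = 0.0166) and H2-Q6 by 0.78 (adjusted p = 0.0541, edgeR). These Q-region genes share part of their sequence with other genes, so reads could be split between genes. Of the 50-base windows of H2-Q4 transcripts 36.4% also lie in other genes, and for H2-Q6 and H2-Q7 35% and 26.5% do.

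The general chaperones and proteasome parts did not pass the test. Of 6 peptide loading and trimming partners (calreticulin, calnexin, Pdia3 and others), none was called from 30 to 90 days, and the median change was 0.07. Tapbpl, a tapasin relative, was at 58.0, 46.1 and 45.1 CPM at 30 days and 38.2, 37.0 and 34.0 CPM at 90 days, a difference of -0.45 (adjusted p = 0.141, edgeR). Uggt1, which checks glycoprotein folding, differed by -0.13. The 8 constitutive catalytic subunits and proteasome activators had a median of 0.02, with Psme1, a subunit of the interferon-induced activator, at 0.33 (adjusted p = 0.117) and Psme4 at -0.26 (adjusted p = 0.236). The 11 other subunits of the 20S core had a median of 0.06, with Psma1 at 0.15 and Psma6 at 0.16. No gene of these 3 lists was called in any of the 5 tests by edgeR, DESeq2 or limma-voom. From 30 to 90 days 1, 2 and 0 genes of the 3 lists had an unadjusted p under 0.05 with edgeR, against 2560 of all 15224 genes.

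The factors that act on class I promoters were also not called. Of 13 such genes, none passed from 30 to 90 days with edgeR, DESeq2 or limma-voom, 0 had an unadjusted p under 0.05, and the median was 0.03. Irf1, which interferon induces and which binds the interferon element, differed by 0.23 (adjusted p = 0.392), and Ciita, the class II counterpart of Nlrc5, by 0.45 (adjusted p = 0.543, edgeR). Of 15 interferon signalling genes, 13 were tested, edgeR called none and the median was 0.09. An unadjusted p under 0.05 was found for 2 of the 13, against 2560 of all 15224 genes. Irf8, a myeloid interferon regulatory factor, differed by 0.47 (adjusted p = 0.0657, edgeR), and DESeq2 alone called it. Ifng, the gene of interferon gamma, had 0 to 4 counts in a library and Ifnb1 had 0 in each, so neither could be tested.

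All 21 genes that interferon induces, taken from outside the class I pathway, had changes above 0 from 30 to 90 days. Of these, edgeR called 5 higher, against 1.81% of all genes tested called higher. An unadjusted p under 0.05 was found for 10 of the 21, against 2560 of all 15224 genes. The median over the list was 0.48, against 0.51 for the class I genes. The 5 were Gbp2 (0.77), Gbp3 (0.76), Gbp4 (0.93), Iigp1 (1.00) and Tgtp2 (1.89), GTPases of the guanylate-binding and immunity-related families, with adjusted p between 0.00383 and 0.0419 (edgeR). Iigp1 was at 5.46, 6.60 and 7.16 CPM at 30 days, 7.55, 5.52 and 4.92 CPM at 60 days, and 15.3, 14.6 and 8.53 CPM at 90 days. Unlike most of the class I genes, Iigp1, Gbp2 and Gbp4 were highest in 90-day sample 1. DESeq2 called 6 (these and Igtp) and limma-voom 3. From 60 to 90 days Iigp1 (1.103, adjusted p = 0.0359) and Tgtp2 (1.55, adjusted p = 0.0488, edgeR) were called, and the list's median was 0.62. Without 90-day sample 2, 1 of the 21 was called from 30 to 90 days (Tgtp2, 1.53, adjusted p = 0.0404, edgeR), the median was 0.42, and none was called from 60 to 90 days.

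**Figure D5:**
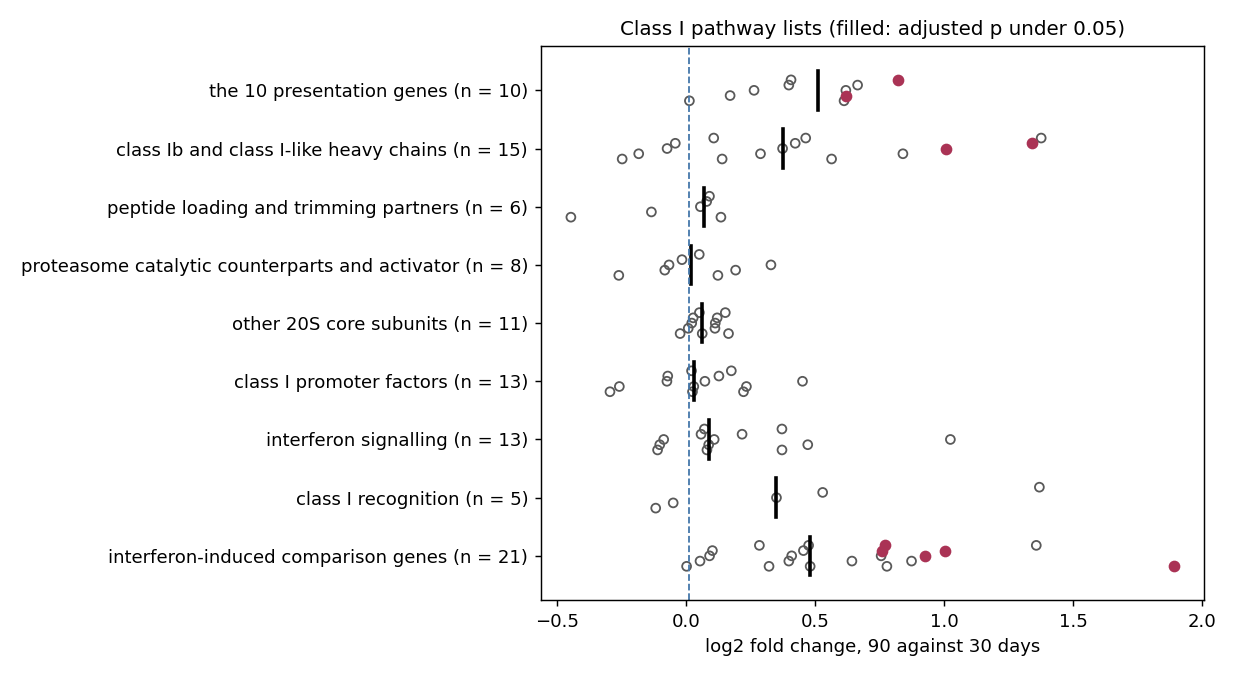
Log2 fold change from 30 to 90 days of each tested gene, by list; filled points have adjusted p under 0.05, black bars are list medians and the dashed line is the median of all genes tested (0.01). Filled points occur among the presentation genes (2), the class Ib heavy chains (2) and the interferon-induced genes (5).

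The genes of a receptor list, of which some read class I molecules, were low. Of 7, 5 passed the filter and none was called by edgeR, DESeq2 or limma-voom (0 with an unadjusted p under 0.05), with Klrk1 (NKG2D) at 2.20 to 3.26 CPM at 30 days and 2.76 to 3.82 CPM at 90 days. Lilrb4a, an inhibitory receptor of myeloid cells, differed by -0.12 from 30 to 90 days. The co-receptor gene Cd8a did not pass the filter, with 1 to 30 counts in a library.

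Of the 10 genes, 7 lie in the MHC region of chromosome 17. From Tapbp (chr17:33915899-33929292) the order runs through H2-K1, Psmb9, Tap1, Psmb8 and Tap2 to H2-D1. Between the start of H2-K1 and the end of H2-D1, 1271483 bases, 128 other genes are annotated and 63 were tested. None of the 63 was called from 30 to 90 days by edgeR or limma-voom, while DESeq2 called 1, the myeloid gene Aif1. An unadjusted p under 0.05 with edgeR was found for 10 of the 63, against 2560 of all 15224 genes. The median change of the 63 was 0.15, against 0.01 over all genes and 0.51 for the class I genes. The neighbour called in another comparison was Skiv2l, an RNA helicase gene, which fell by 0.43 from 30 to 60 days (adjusted p = 0.0451, edgeR). B2m, on chromosome 2, and Nlrc5 and Psmb10, on chromosome 8, lie outside the region. Some counts may be shared where genes overlap in the GENCODE positions. Psmb9 and Tap1 overlap by 212 bases on opposite strands, and Tapbp and Zbtb22 by 3422 bases on the same strand. The use of strand in counting is not given in the sources used here.

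The genes most like the class I set over the 9 libraries included 3 class II genes. Likeness was Pearson's r between a gene's log2 CPM and the mean standardised log2 CPM of the 10 genes. H2-Ab1 (0.979), H2-Eb1 (0.972) and H2-Aa (0.952), chains of the class II molecules, were among the 10 highest, as were Oas1a (0.956) and Epsti1 (0.962), which interferon induces. The others were Plbd1 (0.968), Fbln5 (0.967), Zmynd15 (0.967), Gnai2 (0.953) and Cst3 (0.951). Of 13010 genes at 1 CPM or more, 71 (0.546%) had r above 0.9. These values describe 9 libraries that share depth and the high 90-day sample 2, and none of the 10 genes named was called from 30 to 90 days by edgeR, DESeq2 or limma-voom. H2-Ab1 stood at 104.5, 184 and 103 CPM at 90 days against 63.4, 93.0 and 114 CPM at 30 days, so that its groups overlapped where those of B2m did not.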

How the data were processed

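The authors deposited raw counts per Ensembl gene, as whole numbers, 1 column per library. The submitters' processing notes name fastp, STAR, featureCounts and build mm10, while versions, annotation and use of strand are not given in the sources used here. Each column name gives a day and a number, which tie it to a sample, and 3 columns of per-sample values tied to no sample listed here were left out. Symbols were available for 54409 of 54532 identifiers, and GENCODE mouse release 21 gave positions and exon lengths.

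The filter on low counts was filterByExpr (minimum count 10), libraries were scaled by TMM, and all 9 were fitted together with a term for time point in edgeR 4.0.16 (robust quasi-likelihood, Benjamini-Hochberg over 15224 genes, threshold 0.05). The test was tested on simulated data. Alternatives used DESeq2 1.42.0, limma 3.58.1, other scalings and filters, the 6 samples of a contrast, each sample left out, and the sample number as a block. Likeness used log2 CPM with a prior count of 2. Named genes were the 10, each list's genes under the threshold in any test or else its 2 lowest p-values, Cd3e and Ptprc, the 10 most like, and called neighbours. Skiv2l came from the last of these. Not every gene under this rule is reported here. Other genes are named as examples, chosen after their values were seen. The 10 genes and the lists were chosen with earlier results of these data known. The motif patterns are forms of textbook elements. GAANNGAAA was the form of the interferon response element searched, and TTCNNNGAA that of the gamma-activated site. The kappa B-like one was settled after the H2-K1 and B2m sequences were seen. The 3-count floors cover counting error only. Software included R 4.3.3, Python 3.11.15 and matplotlib 3.10.9.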

Additional observations from a re-analysis of the deposited data

How the results depend on the processing

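The number of the 10 genes called from 30 to 60 days was 0 under all 17 alternatives. From 60 to 90 days it was 1, and became 2 with DESeq2 and 3 with no filter on low counts, where 150 of 15224 and 354 of 27001 genes were called in all, against 39. From 30 to 90 days it was 2, and became 1 with library-size scaling, 1 with the 6 samples of the contrast alone and 6 with no filter. For any difference among the time points it was 2, and became 1 with library-size scaling, 1 with limma-voom and 6 with no filter. The difference between the steps called 0, and 1 with no filter. Leaving out a sample gave 0 to 1 from 60 to 90 days, 1 to 3 from 30 to 90 days and 1 to 3 for any difference. The cause of these moves was not tested. With the sample number as a replicate block the numbers were 0 (30 to 60 days), 1 (60 to 90 days), 2 (30 to 90 days), 2 (any difference) and 0 (difference between steps). The block changed no call among the 10, and raised the calls over all genes from 60 to 90 days from 39 to 92. Deviations of same-numbered samples correlated between -0.06 and 0.191, with 1 of 9 pairs above 0.1, and 1 of 9 libraries was closest to its own number, so the numbers were not taken as pairing.

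Library-size scaling moved the median of all genes to 0.24 from 30 to 90 days and 0.17 from 60 to 90 days. The medians of the 10 were then 0.73 and 0.59. It made 406 of 440 calls higher from 30 to 90 days (275 of 544 in the main analysis) and 19 of 28 from 60 to 90 days (14 of 39). Under it, 5 changes near 0 turned positive: Uggt1 (0.0904), Psma1 (0.0955) and Psma6 (0.0851) from 60 to 90 days, and Uggt1 (0.0968) and Lilrb4a (0.10) from 30 to 90 days.

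Leaving out a sample turned the sign of small changes. From 30 to 60 days the ranges were -0.12 to 0.14 (H2-K1), -0.10 to 0.12 (H2-D1), -0.0817 to 0.14 (B2m), -0.17 to 0.31 (Psmb8), -0.27 to 0.28 (Psmb9) and -0.0243 to 0.43 (Psmb10). From 60 to 90 days they were -0.0263 to 0.29 (Psmb10) and -0.25 to 0.0543 (Psma6), and from 30 to 90 days -0.10 to 0.17 (Tap1). With 2 samples left in a group, the spread is pooled over all groups. Over all genes, calls from 30 to 90 days were 867 with DESeq2, 1045 with no filter and 184 to 703 on leaving out a sample, against 544. Depth limits Ifng, Ifnb1, Cd8a and the T cell receptor genes, which hold few counts.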
